A study of Mus musculus with 6 samples.

Results

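The 10 genes described here belong to the circadian clock of the liver and to its PAR-bZIP output branch. They are the repressors Per1, Per2, Per3 and Ciart, the REV-ERB receptors Nr1d1 and Nr1d2, the PAR-bZIP activators Dbp and Tef, and the positive regulators Arntl and Npas2. They were taken by symbol from the 24346 entries of the deposited expression table, and all 10 were found. They had been picked because lipophagy liver 3 stood apart from the other livers in clock genes, so the distance of that liver in these genes is given as a description and was not tested.

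Liver RNA was sequenced from 3 control and 3 lipophagy-induced male C57BL/6J mice (C57BL/6 in the labels). All 6 mice received CDAHFD, a high-fat diet without choline and with free amino acids that produces steatohepatitis, for 6 weeks from 8 weeks of age, were switched to normal chow, and were analysed 2 weeks later. Both groups carried an AAV8 vector in which the liver-specific thyroxine-binding globulin promoter, active in hepatocytes, drives an mCherry-tagged fusion protein with the lipid droplet-targeting sequence (LDTS) of perilipin 1. In lipophagy-induced mice the LDTS was joined to an engineered LC3-interacting region that recruits autophagosomes (LDTS-eLIR), and in control mice to a mutant region without that affinity (LDTS-LIR mut), so the controls carried the droplet-targeting sequence too. The mice lived in 13 h of light and 11 h of dark with free access to food, and the hour at which each liver was collected is not given in the sources used here. Each library is 1 liver, and p-values measure the spread between these livers.

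In hepatocytes, a dimer of ARNTL (also called BMAL1) with CLOCK or NPAS2 binds E-boxes and switches on the Per and Cry genes, Ciart, Nr1d1, Nr1d2, Dbp and Tef. PER, CRY and CIART proteins then repress that dimer, while the REV-ERB receptors repress Arntl and Npas2 through ROR elements, so that Arntl and Npas2 transcripts run against those of Dbp and the Per genes over the day. DBP, TEF and their relative HLF bind D-boxes in genes of xenobiotic and lipid metabolism. Feeding, temperature and glucocorticoids can reset the liver clock.

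The letters of these elements were searched on both strands of RefSeq promoter windows (build GRCm38.p6, of the assembly that the submitters name mm10), which run from 250 bases before to 50 bases after an annotated start site. A window was held for 9 of the 10 members, not for Per2, 12 windows in all. The E-box was searched as CACGTG, which reads the same on both strands, the D-box as TTATGTAA or TTACGTAA, and the ROR element by its core AGGTCA. None of these letters overlapped in the members. An E-box stood in 4 of the 12 windows, those of Ciart, the upstream window of Per1 and both windows of Tef, against 7.15% of all 32851 windows. Per3 held 2 D-boxes, while 1.06% of all windows held at least 1 and 0.0244% at least 2. AGGTCA stood in windows of Arntl, Nr1d2 and Per1, against 16.3% of all windows. A match describes letters only, and the lack of a match says only that they are not in this window.

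Of the windows printed, Ciart and Per1 lay farthest from the other livers in lipophagy liver 3, Arntl held the ROR letters, and Per3, added after the search, held the D-boxes. Dbp, Nr1d1 and Npas2, chosen in advance along with Ciart, Per1 and Arntl, are printed beside them, and none of the letters was found there. Capitals mark the matches. The Ciart window is chr3:95882179-95882478 on the minus strand, with E-boxes starting 116, 58 and 44 bases before the start site, and 0.0883% of all windows held 3 or more. The Per1 window is chr11:69098699-69098998 on the plus strand, with an E-box 166 bases and AGGTCA on the other strand 137 bases before the start. The Per3 window is chr4:151044616-151044915 on the minus strand, with D-boxes 205 and 158 bases before the start. The Arntl window is chr7:113207261-113207560 on the plus strand, with AGGTCA 32 bases after the start. Those of Dbp (chr7:45704997-45705296, plus strand), Nr1d1 (chr11:98775328-98775627, minus strand) and Npas2 (chr1:39194022-39194321, plus strand) complete the set.
Ciart: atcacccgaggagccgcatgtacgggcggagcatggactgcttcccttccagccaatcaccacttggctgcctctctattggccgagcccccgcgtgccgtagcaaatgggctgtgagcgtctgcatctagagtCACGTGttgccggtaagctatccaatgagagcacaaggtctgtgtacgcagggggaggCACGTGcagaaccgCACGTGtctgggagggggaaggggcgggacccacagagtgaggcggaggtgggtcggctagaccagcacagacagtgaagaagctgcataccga
Per1: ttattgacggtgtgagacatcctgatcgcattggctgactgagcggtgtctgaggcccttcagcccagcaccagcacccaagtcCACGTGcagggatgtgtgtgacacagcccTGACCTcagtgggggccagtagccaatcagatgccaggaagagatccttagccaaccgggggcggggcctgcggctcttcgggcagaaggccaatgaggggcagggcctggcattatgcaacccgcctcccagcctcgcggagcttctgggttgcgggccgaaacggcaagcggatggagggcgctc
Per3: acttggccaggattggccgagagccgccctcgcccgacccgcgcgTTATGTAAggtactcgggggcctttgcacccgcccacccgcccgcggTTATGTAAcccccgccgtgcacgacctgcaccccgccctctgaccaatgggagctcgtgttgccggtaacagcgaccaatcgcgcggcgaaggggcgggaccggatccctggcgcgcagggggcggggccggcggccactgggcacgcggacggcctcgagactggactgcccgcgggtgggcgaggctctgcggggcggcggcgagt
Arntl: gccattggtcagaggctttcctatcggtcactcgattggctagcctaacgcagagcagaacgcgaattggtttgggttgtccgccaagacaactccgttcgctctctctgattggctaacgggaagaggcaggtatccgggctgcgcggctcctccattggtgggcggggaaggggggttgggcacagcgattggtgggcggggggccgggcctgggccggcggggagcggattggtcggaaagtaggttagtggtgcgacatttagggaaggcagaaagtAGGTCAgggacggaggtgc
Dbp: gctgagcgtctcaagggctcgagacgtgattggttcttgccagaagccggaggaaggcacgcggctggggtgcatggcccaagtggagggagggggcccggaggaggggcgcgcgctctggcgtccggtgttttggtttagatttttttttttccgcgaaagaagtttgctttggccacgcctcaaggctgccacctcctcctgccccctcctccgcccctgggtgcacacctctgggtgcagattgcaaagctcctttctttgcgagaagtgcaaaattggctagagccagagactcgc
Nr1d1: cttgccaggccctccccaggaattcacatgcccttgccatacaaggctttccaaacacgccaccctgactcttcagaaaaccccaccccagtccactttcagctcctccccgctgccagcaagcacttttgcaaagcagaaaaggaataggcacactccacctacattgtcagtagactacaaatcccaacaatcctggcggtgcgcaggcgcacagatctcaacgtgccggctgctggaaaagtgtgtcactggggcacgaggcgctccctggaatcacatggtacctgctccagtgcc
Npas2: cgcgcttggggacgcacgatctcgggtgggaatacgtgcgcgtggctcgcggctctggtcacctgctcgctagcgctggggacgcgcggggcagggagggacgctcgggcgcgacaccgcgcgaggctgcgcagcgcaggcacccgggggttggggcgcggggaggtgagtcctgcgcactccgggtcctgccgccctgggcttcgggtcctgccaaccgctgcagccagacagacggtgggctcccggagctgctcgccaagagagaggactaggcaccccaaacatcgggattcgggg

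**Figure D1:**
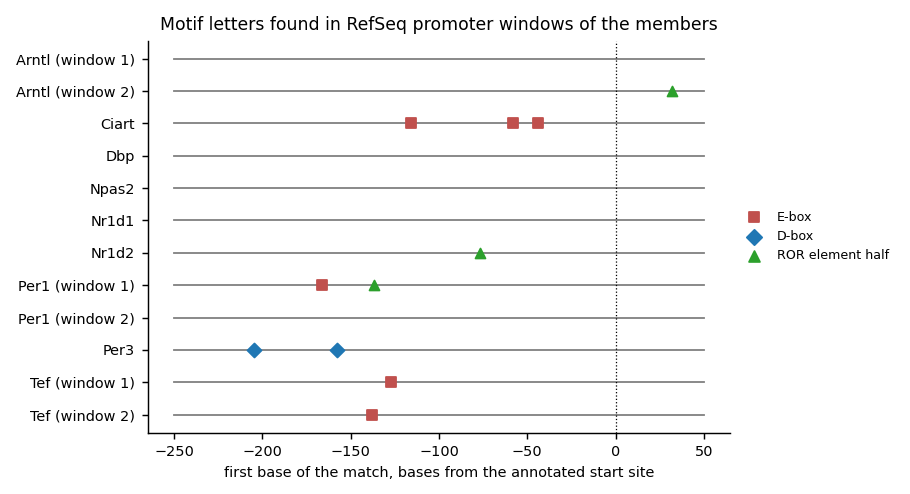
Matches to the searched letters in the 12 RefSeq promoter windows of the 9 members that had any; the x axis gives the position of a match in bases from the annotated start site (dotted line), squares mark E-boxes, diamonds D-boxes and triangles AGGTCA. Ciart held 3 E-boxes, Per3 held 2 D-boxes, and the windows of Dbp, Npas2 and Nr1d1 held no match.

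Levels are FPKM (fragments scaled to transcript length and to the mapped total), and differences are on log2(FPKM + 1), a scale that understates the change of low genes. The steps between low values put the depth at an estimated 22.9 to 34.0 M fragments per liver (M, 1000000). The limma fit covered the 11493 entries whose mean FPKM reached 0.5. Lipophagy liver 3 stood apart most, with 20 tested genes above and 3 below all other livers by at least 1 on the log2 scale (0.2% of tested genes), against 2 to 8 above and 0 to 5 below in each other liver.

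Ciart, which encodes CHRONO, a repressor of the ARNTL dimer, showed the largest distance among the members. It was at 2.46, 2.62 and 4.76 FPKM in control livers 1, 2 and 3 and at 2.98, 4.50 and 35.5 FPKM in lipophagy livers 1, 2 and 3. Lipophagy livers 1 and 2 lay within the range of the controls, and liver 3 was far above all other livers. Liver 3 was 10.2 times the mean of the other 5 livers (3.46 ± 1.09 FPKM, SD, n = 5). Its distance from their mean was 3.06 on the log2 scale, rank 3 from the top among the 11493 tested genes. The estimated fragments behind these values ran from 112 to 1576.

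Per1, a period repressor that is also an acute target of glucocorticoid and cAMP signals, was next. It was at 1.76, 2.13 and 2.56 FPKM in control livers 1, 2 and 3 and at 3.28, 3.17 and 8.71 FPKM in lipophagy livers 1, 2 and 3. Liver 3 was 3.38 times the mean of the other 5 livers, and lipophagy livers 1 and 2 also lay above all controls. Per1 was the single tested member whose groups did not overlap, beside 26.2% of all tested genes (15.4% with the lipophagy livers above).

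Per2, a period protein whose accumulation times the repressive phase, was at 2.19, 2.23 and 2.25 FPKM in the control livers and at 1.86, 1.90 and 4.07 FPKM in the lipophagy livers. The control livers were nearly level, lipophagy livers 1 and 2 lay below all of them, and liver 3, at 1.95 times the mean of the other 5, lay above. Per3, the remaining period gene, was at 2.92, 1.86 and 3.03 FPKM in the control livers and at 1.69, 1.84 and 3.91 FPKM in the lipophagy livers. It had the same order within the lipophagy group, with control liver 2 close to lipophagy livers 1 and 2, and liver 3 was 1.73 times the mean of the others.

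Dbp, the leading PAR-bZIP activator of liver, was at 44.4, 36.8 and 65.0 FPKM in the control livers and at 36.0, 45.4 and 68.4 FPKM in the lipophagy livers. Lipophagy liver 3 and control liver 3 were close to each other and above the other 4 livers. Tef, its relative, was at 24.3, 19.9 and 25.0 FPKM in the control livers and at 18.1, 21.2 and 36.7 FPKM in the lipophagy livers. For Tef, liver 3 was clear of all others at 1.69 times their mean, and for Dbp it was only 0.072 above control liver 3 on the log2 scale.

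The REV-ERB receptors, which close the loop on Arntl, differed from each other. Nr1d2 (REV-ERB beta) was at 14.9, 14.4 and 16.0 FPKM in the control livers and at 11.5, 14.6 and 18.5 FPKM in the lipophagy livers, with liver 3 highest. Nr1d1 (REV-ERB alpha) was at 32.1, 36.8 and 37.6 FPKM in the control livers and at 33.7, 38.7 and 30.3 FPKM in the lipophagy livers. Liver 3 was the lowest of the 6 for Nr1d1, at 0.848 times the mean of the other 5, in contrast to the other repressors and to Dbp and Tef. Nr1d1 overlaps Thra on the opposite strand, and whether strand was used when fragments were counted is not given in the sources used here, so its level is uncertain to that extent.

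Both positive regulators were lowest in lipophagy liver 3. Arntl, which encodes BMAL1, was at 1.14, 1.23 and 0.753 FPKM in the control livers and at 1.29, 0.583 and 0.327 FPKM in the lipophagy livers. Liver 3 was lowest, at 0.327 times the mean of the other 5, lipophagy liver 2 was next, and the groups overlapped. Npas2, the alternative partner of ARNTL, was at 0.119, 0.124 and 0.166 FPKM in the control livers and at 0.0725, 0.150 and 0.0497 FPKM in the lipophagy livers. Unlike Arntl, Npas2 was highest in control liver 3. It was under the limit of 0.5 FPKM and was not tested, and its values rested on an estimated 5.04 to 23.2 fragments per liver, against 31.2 to 118 for Arntl.

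**Figure D2:**
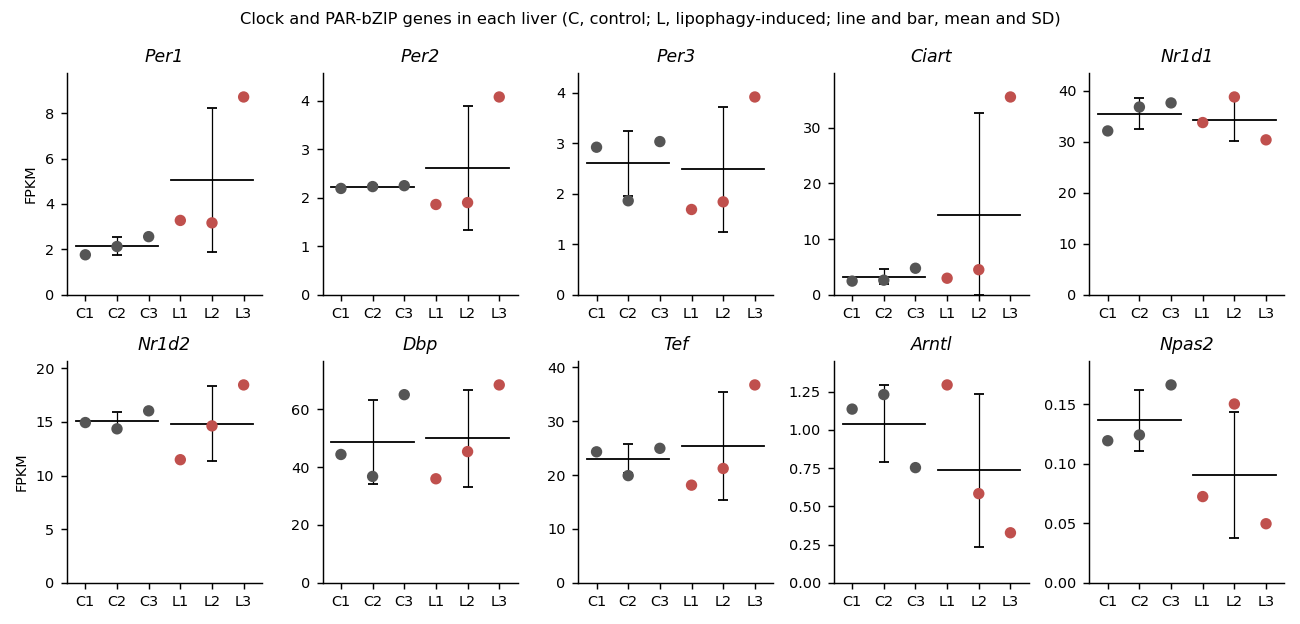
FPKM of each of the 10 members in control livers (C1 to C3, grey) and lipophagy-induced livers (L1 to L3, red), each panel with its own axis from 0; horizontal lines are group means and vertical bars the SD (n = 3, stopped at 0 for the lipophagy group of Ciart). L3 is the highest point in 7 panels and the lowest for Nr1d1, Arntl and Npas2.

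By control level in FPKM, which is per length, Dbp (48.7 ± 14.6 FPKM, SD, n = 3) and Nr1d1 (35.5 ± 2.96) came highest and did not differ beyond the spread of Dbp. Tef (23.1 ± 2.76) and then Nr1d2 (15.1 ± 0.852) followed, each without overlap with its neighbours over the control livers. Ciart (3.28 ± 1.29), Per3 (2.60 ± 0.646), Per2 (2.22 ± 0.0290) and Per1 (2.15 ± 0.400) each overlapped the next in this order. Arntl (1.04 ± 0.253) and Npas2 (0.137 ± 0.0258) were lowest and separate from each other. In lipophagy liver 3 this order was broken, with Ciart at 35.5 FPKM above Nr1d1 at 30.3 FPKM.

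Liver 3 was highest for 7 of the 9 tested members and lowest for 2, beside 16.5% and 15.7% of all tested genes, values from which nothing is read since the members were picked on that liver. Over the 8 members other than Arntl and Npas2, control liver 3 was highest or next to highest for 7 and lipophagy liver 1 was lowest for 5. The mean deviation of these 8 genes from each gene's own mean on the log2 scale was -0.19 in control liver 1, -0.26 in control liver 2 and 0.071 in control liver 3. In the lipophagy group it was -0.29, -0.094 and 0.76 for livers 1, 2 and 3. For Arntl and Npas2 the controls had 0.11, 0.14 and -0.0055, and the lipophagy livers 0.13, -0.089 and -0.28. Each member was also set against the mean z-score of the other genes among the 8 over the 6 livers. Pearson's r was 0.95 for Tef, 0.89 for Ciart, Dbp and Nr1d2, 0.87 for Per2, 0.81 for Per3 and 0.69 for Per1. It was -0.53 for Nr1d1, -0.89 for Arntl and -0.28 for Npas2. These describe 6 livers that share their libraries and depth, and liver 3 spans much of the range.

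The comparison of the groups asks whether these genes differed when lipophagy was induced. With all 6 livers, 0 of the 9 tested members had an adjusted p below 0.05 (limma), beside 0.0261% of all tested genes. Per1 was the 1 member with an unadjusted p below 0.05, beside 19.5% (11.5% higher and 7.97% lower). Liver 3 is part of this contrast, so nothing is read from these counts. The log2 difference, lipophagy minus control, was 1.16 for Ciart (SE 0.73, 95% interval -0.52 to 2.83) and 0.83 for Per1 (SE 0.30, 0.14 to 1.52). It was 0.11 for Per2 (SE 0.20) and -0.090 for Per3 (SE 0.24). Nr1d1 and Nr1d2 were at -0.052 (SE 0.11) and -0.046 (SE 0.15). Dbp was at 0.024 (SE 0.26), Tef at 0.075 (SE 0.23) and Arntl at -0.26 (SE 0.19). The median over the 9 was 0.024, beside 0.020 over all tested genes.

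Without lipophagy liver 3, the liver on which the members were picked, 0 of the 9 had an adjusted p below 0.05 (limma), beside 0.0957% of tested genes. Per1 was again the 1 member with an unadjusted p below 0.05, beside 22.2%. Groups did not overlap for Per1, Per2 and Per3, 3 of the 9, beside 44.4% of tested genes. Per1 was higher in lipophagy livers 1 and 2 than in every control, by 0.43 (SE 0.12, 95% interval 0.15 to 0.71, adjusted p = 0.157, limma). Per2 and Per3 lay below every control in both lipophagy livers, with differences of -0.16 (SE 0.079, adjusted p = 0.272, limma) and -0.37 (SE 0.16, adjusted p = 0.228, limma).

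For Ciart the difference without liver 3 was 0.17 (SE 0.24, 95% interval -0.41 to 0.74), so this comparison left a range of both signs. The values for Dbp, Tef and Nr1d2 were -0.22 (SE 0.23), -0.22 (SE 0.12) and -0.20 (SE 0.11). Nr1d1 was at 0.030 (SE 0.11) and Arntl at -0.091 (SE 0.18). The signs of Per2, Dbp, Tef and Nr1d1 turned when liver 3 was left out, and the median over the 9 members went from 0.024 to -0.16.

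**Figure D3:**
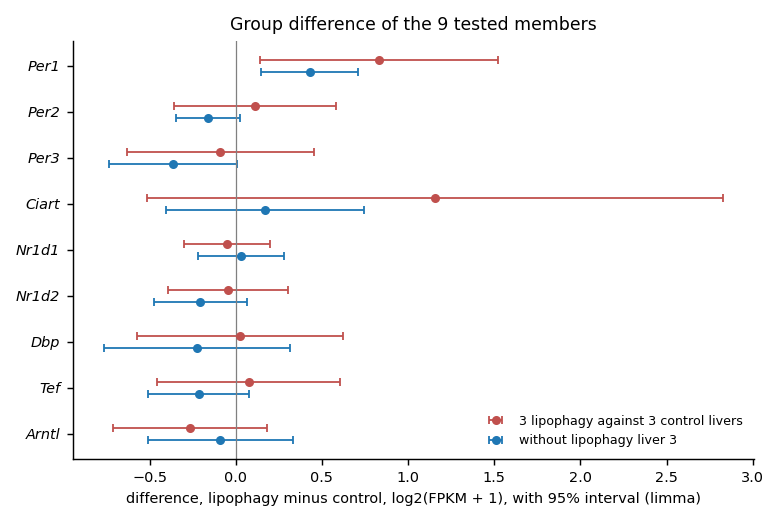
Difference between lipophagy-induced and control livers for the 9 tested members on log2(FPKM + 1), with 95% intervals from limma, for all 6 livers (red) and without lipophagy liver 3 (blue). The interval of Ciart spans -0.52 to 2.83 with liver 3 and -0.41 to 0.74 without it, and both intervals of Per1 lie above 0.

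The other components of the clock showed smaller differences. Of 19 such genes 17 were tested, 10 with a higher and 7 with a lower mean in the lipophagy group, and their median log2 difference was 0.015. None passed the adjustment (0 of 17, limma), and 2 had an unadjusted p below 0.05, beside 19.5% of all tested genes. These were Cry1, a cryptochrome that represses the ARNTL dimer (0.32, SE 0.13, adjusted p = 0.240, limma), and Csnk1e, a kinase that marks PER proteins for degradation (-0.25, SE 0.094, adjusted p = 0.213, limma). For Csnk1e and Gsk3b, another kinase of clock proteins (-0.18, SE 0.076), all lipophagy livers lay below all controls, 2 of 17 beside 10.8% of tested genes.

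Bhlhe40, which encodes the E-box repressor DEC1, had the largest distance of liver 3 in this list. It was at 22.3, 24.5 and 26.6 FPKM in the control livers and at 32.8, 24.4 and 64.7 FPKM in the lipophagy livers, and liver 3 was 2.48 times the mean of the others. Hlf, the remaining PAR-bZIP factor, was at 4.91, 4.58 and 4.76 FPKM in the control livers and at 4.69, 5.19 and 7.26 FPKM in the lipophagy livers, with liver 3 again clear of the rest. Liver 3 was highest as well for the cryptochromes Cry1 (2.03 FPKM, others 0.949 to 1.74) and Cry2 (8.39, others 5.32 to 6.17). The same held for the ROR receptor Rora (3.35 FPKM, others 2.53 to 3.07) and for Bhlhe41, a relative of Bhlhe40 (1.49, others 0.631 to 1.43). In all, liver 3 was highest for 9 of the 17 and lowest for 3, beside 16.5% and 15.7% of all tested genes.

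Clock, the usual partner of ARNTL, was lowest in liver 3 at 1.72 FPKM, the others lying at 1.96 to 2.41. Nfil3, the D-box repressor that opposes DBP, was at 4.55, 9.40 and 7.19 FPKM in the control livers and at 9.55, 8.74 and 4.96 FPKM in the lipophagy livers. Control liver 1 and lipophagy liver 3 were the low samples for Nfil3. Fbxl21, an F-box gene, had a log2 difference of -0.23 (SE 0.12), which was -0.097 without liver 3. The F-box gene Btrc (0.027), the kinases Csnk1d (0.037) and Prkaa1 (0.0075), and Timeless (-0.041) had log2 differences nearer to 0. None of these 5 had an unadjusted p below 0.05. Arntl2 was under the limit for testing, and Rorb was listed at 0 in all 6 livers.

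**Figure D4:**
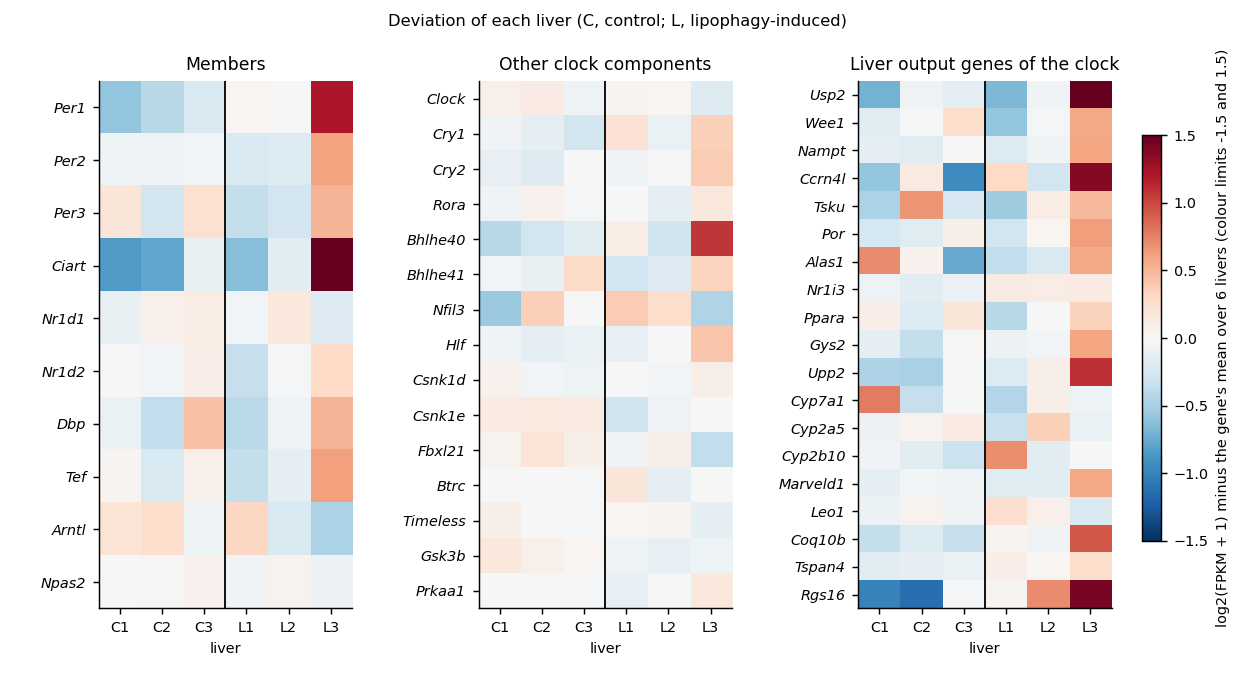
Deviation of log2(FPKM + 1) from each gene's mean over the 6 livers (red higher, blue lower, colours stopped at -1.5 and 1.5) for the 10 members, 15 of the tested other clock components and the 19 tested liver output genes. The L3 column is red for most members, for Bhlhe40 and for Usp2, and blue for Arntl, Nfil3 and Fbxl21.

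Genes known as rhythmic outputs of the clock in liver were read next. Of 21 listed, 20 were in the table and 19 were tested, with 14 higher in mean in the lipophagy group, beside 54.5% of all tested genes, and a median log2 difference of 0.23. None passed the adjustment (0 of 19, limma) and 4 had an unadjusted p below 0.05, a share close to the 19.5% over all tested genes. Without liver 3 the median was -0.0098 and 9 of 19 were higher. Liver 3 was highest for 13 of the 19 and lowest for 1, beside 16.5% and 15.7% of all tested genes. Its median distance from the other livers was 0.68.

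Usp2, a deubiquitinase gene under clock control, lay farthest among the outputs. It was at 2.54, 4.49 and 4.24 FPKM in the control livers and at 2.64, 4.58 and 17.3 FPKM in the lipophagy livers, so that liver 3 was 4.68 times the mean of the others and the remaining lipophagy livers lay close to the controls. Rgs16, a regulator of G-protein signalling, had the highest log2 difference (1.45, SE 0.38, adjusted p = 0.145, limma). It was at 4.0, 3.58 and 8.80 FPKM in the control livers and at 9.34, 15.4 and 25.9 FPKM in the lipophagy livers, groups that did not overlap. Cyp7a1, the rate-limiting enzyme of bile acid synthesis, had the lowest difference (-0.28, SE 0.27), with control liver 1 at 35.3 FPKM and the other livers at 14.7 to 21.6 FPKM. Without control liver 1 it was at 0.036.

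Genes that REV-ERB receptors repress or ROR factors activate had a median log2 difference of -0.025 (0.13 without liver 3), with 4 of 9 higher, beside 54.5% of all tested genes, and 0 at an adjusted or unadjusted p below 0.05 (limma), beside 0.0261% and 19.5%. G6pc, the glucose-6-phosphatase gene, had the highest difference (1.29, SE 0.61; 0.65 without control liver 3 and 0.73 without lipophagy liver 1) and was at 107, 86.9 and 24.7 FPKM in the control livers and at 329, 89.9 and 117 FPKM in the lipophagy livers. Lipophagy liver 1 was the high sample there, not liver 3. Insig2, an inhibitor of SREBP processing, had the lowest difference (-0.31, SE 0.19, and -0.13 without liver 3) and was lowest in liver 3 at 37.7 FPKM, the others lying at 46.7 to 71.2. Avpr1a, a vasopressin receptor gene, lay farthest in liver 3, at 3.14 FPKM against 5.01 to 6.54. Liver 3 was highest for 1 of the 9 and lowest for 3, beside 16.5% and 15.7% of all tested genes.

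Targets of signals that can act on the clock were read in the same way. Of 11 genes of the glucocorticoid response, liver 3 was highest for 10, beside 16.5% of all tested genes, with a median distance of 1.27. The mean was higher in the lipophagy group for 7 of the 11, beside 54.5% of all tested genes. This list was chosen with earlier results of these data known, so nothing is read from these counts. The median log2 difference was 0.24, and 0.064 without liver 3, with 0 of 11 past the adjustment and 2 at an unadjusted p below 0.05 (limma), beside 19.5% of all tested genes. Dusp1, a phosphatase gene that restrains MAP kinases, lay farthest. It was at 9.24, 6.56 and 8.13 FPKM in the control livers and at 6.90, 5.81 and 29.6 FPKM in the lipophagy livers, with liver 3 at 4.04 times the mean of the others. Tsc22d3, which encodes the glucocorticoid-induced leucine zipper protein, had the highest difference (1.22, SE 0.25, adjusted p = 0.124, limma). It was at 15.9, 21.4 and 18.1 FPKM in the control livers and at 35.9, 34.5 and 68.6 FPKM in the lipophagy livers. All lipophagy livers lay above all controls. Mt2, a metallothionein gene, had the lowest difference (-0.33, SE 0.49). The part of this response in the values of the clock genes was not tested.

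The CREB targets had a median distance of 0.082 in liver 3, which was highest for 2 of the 9 tested, beside 16.5% of all tested genes. Their median difference was -0.037, with 0 past the adjustment and 3 at an unadjusted p below 0.05 (limma), beside 19.5%, and it was at 0.036 without control liver 2 and 0.011 without lipophagy liver 1. Pck1, a gluconeogenic enzyme gene, had the highest difference (0.74, SE 0.24, and 0.47 without liver 3) and lay farthest in liver 3 (1391 FPKM, others 497 to 828). Fos, an immediate early gene, had the lowest difference (-0.39, SE 0.15).

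Genes of the fed state had a higher mean in the lipophagy group in 11 of 11 tested, beside 54.5% of all tested genes, with 0 past the adjustment and 8 at an unadjusted p below 0.05 (limma), beside 19.5%. Their median was 0.59, and 0.40 without lipophagy liver 1, 0.89 without liver 2 and 0.62 without liver 3. Thrsp, a regulator of lipogenesis, had the highest difference (2.22, SE 0.42) and Me1, malic enzyme, the smallest (0.22, SE 0.19). Lpin1, a phosphatidate phosphatase gene that was placed in this list but is not a marker of the fed state alone, lay farthest in liver 3. It was at 5.43, 9.21 and 5.42 FPKM in the control livers and at 17.8, 15.8 and 49.2 FPKM in the lipophagy livers, with all lipophagy livers above all controls.

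Genes of the fasted state, among them Pck1 and G6pc of the lists above, had a median of 0.34. The mean was higher in the lipophagy group for 8 of 14, beside 54.5% of all tested genes. In this list 0 passed the adjustment and 9 had an unadjusted p below 0.05 (limma), beside 19.5%. The median was 0.17 without lipophagy liver 1 and with quantile normalization. G6pc had the highest difference, Pck1 lay farthest in liver 3, and Cidec, a lipid droplet protein gene, had the lowest difference (-1.47, SE 0.22, adjusted p = 0.0897, limma). Without liver 3 Cidec passed the threshold (-1.73, adjusted p = 0.0251, limma). Temperature-responsive genes, most of them heat shock genes, had a median of 0.16, with 9 of 12 higher, beside 54.5% of all tested genes. Here 0 passed the adjustment and 2 had an unadjusted p below 0.05 (limma), beside 19.5%. The median was 0.059 without control liver 1 and 0.28 without control liver 2. Hspa8, a constitutive chaperone gene, had the highest difference (0.45, SE 0.16) and Hspb1, a small heat shock gene, the lowest (-0.38, SE 0.34). Hsph1, another chaperone gene, lay farthest in liver 3 (17.1 FPKM, others 5.92 to 15.7). The part of food intake and of temperature in the values of the clock genes was not tested.

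**Figure D5:**
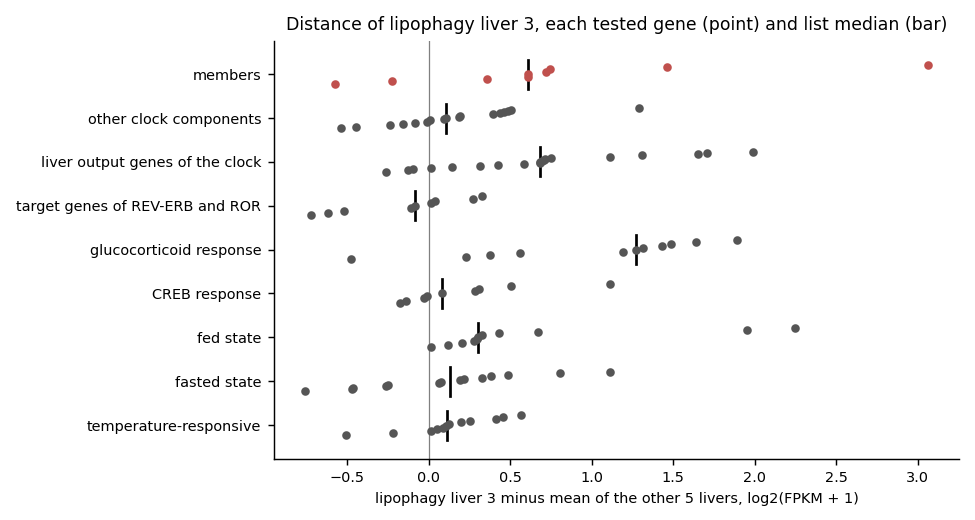
Distance of lipophagy liver 3 from the mean of the other 5 livers on log2(FPKM + 1) for each tested gene (points) of the members (red) and 8 other lists (grey), with the list median as a bar. The median was 0.61 for the members, 0.11 for the other clock components, 0.68 for the liver output genes and 1.27 for the glucocorticoid response, beside 0.0018 over all tested genes.

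Of the listed markers of liver cell types 50 were in the table, and 0 of these were at 0 in any liver. In bulk tissue, fewer cells of a type and less RNA per cell cannot be told apart. A sum in FPKM is weighted to its most abundant marker. Over the 6 livers Alb averaged 45243 FPKM, Lyz2 395, Dcn 118 and Spp1 161 in the hepatocyte, macrophage, stellate cell and bile duct lists. The other bile duct markers averaged 3.07 FPKM or less. Over all tested genes, 54.5% had a higher mean in the lipophagy group and 15.7% were lowest in liver 3. The summed level of 9 hepatocyte markers was 77281 to 87094 FPKM in control and 92528 to 120480.0 FPKM in lipophagy livers, with liver 3 at 99021 FPKM and 8 of 9 higher in mean in the lipophagy group, although their median difference of 0.22 was -0.026 with quantile normalization. Macrophage markers summed to 490.3 to 639 FPKM in control and 479 to 604 FPKM in lipophagy livers (4 of 8 tested lower, and liver 3 lowest for 1 of the 8). Stellate cell markers summed to 160.1 to 175 FPKM in control and 129 to 159.6 FPKM in lipophagy livers (9 of 10 lower), and endothelial markers to 30.3 to 37.5 FPKM in control and 34.4 to 53.0 FPKM in lipophagy livers (6 of 8 higher). Bile duct markers summed to 137 to 247 FPKM in control and 92.0 to 196 FPKM in lipophagy livers (5 of 5 tested lower), with liver 3 at 102 FPKM, and lymphocyte markers to 7.07 to 9.47 FPKM in control and 6.28 to 6.86 FPKM in lipophagy livers (3 of 4 tested lower). The part of these shifts in the values of the clock genes was not tested.

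Genes with a pattern like that of the 8 members were sought among the 411 other tested genes with a range of at least 1 on the log2 scale over the 6 livers. The measure was Pearson's r with the mean z-score of the 8 over the 6 livers, which share their libraries. The highest r belonged to Sertad1 (0.94), Wee1 (0.94), Fkbp5 (0.94), Epha2 (0.91) and Klf13 (0.90). Wee1 was already listed among the liver output genes and Fkbp5 among those of the glucocorticoid response. The members were picked on liver 3, so these r are a description only. Wee1, a kinase gene that restrains entry into mitosis, was at 2.02, 2.35 and 3.14 FPKM in the control livers and at 1.29, 2.36 and 4.10 FPKM in the lipophagy livers. Fkbp5, a co-chaperone of the glucocorticoid receptor, was at 3.65, 4.24 and 5.64 FPKM in the control livers and at 3.68, 6.31 and 16.5 FPKM in the lipophagy livers. Both had liver 3 highest, and Wee1 kept control liver 3 next, as most of the members did. The lowest r belonged to Tjp3 (-0.94), Tubb2a (-0.91), Efna1 (-0.88), Adck3 (-0.87) and 8430408G22Rik (-0.85). Tubb2a, a beta-tubulin gene, was at 84.9, 93.5 and 71.7 FPKM in the control livers and at 108, 50.1 and 21.7 FPKM in the lipophagy livers, with liver 3 lowest.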

How the data were processed

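Liver RNA was sequenced as stranded poly(A) libraries in 3 control and 3 lipophagy livers. Per the labels, the authors aligned reads to mm10 with TopHat2 2.0.13 and Bowtie2 2.2.3 and deposited gene-level FPKM from Cufflinks 2.2.1 (the tool SAMtools 0.1.19 is also named in the submitters' processing notes). The annotation is not given in the sources used here. FPKM are scaled to length and total, so no count test was run, and a large change in abundant transcripts can move the level of others. Depth was estimated from the steps of low values, on which 48.1% to 64.6% of low genes lay.

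Here, genes whose mean FPKM reached 0.5 were fitted on log2(FPKM + 1) with limma 3.58.1 (R 4.3.3, intensity trend, two-sided, Benjamini-Hochberg adjustment over all 11493 tested genes, threshold 0.05), lipophagy against control, with and without lipophagy liver 3. The script was tested on simulated data. Npas2 was under the limit and was not fitted. The members and the gene lists were chosen with earlier results of these data known. Named were all members, all tested other clock components but 2 that are not reported here by name, of each further list the genes with the highest and lowest difference and the one farthest in liver 3, and the 5 genes most and least like the members. Cell type markers are given as sums. Promoter windows came from RefSeq (GRCm38.p6). Fragments behind a level were estimated with the longest GENCODE M21 transcript. Alternatives covered the pseudocount, the filter, scaling, trend, replicate block, sample weights and each liver left out.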

Additional observations from a re-analysis of the deposited data

How the results depend on the processing

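No member had an adjusted p below 0.05 under any of the alternatives (limma), and the lowest adjusted p of a member was 0.119, with the replicate block. Whether replicate numbers pair the livers is not settled by these values. Deviations of same-numbered livers correlated at 0.25, 0.23 and -0.057, and those of differently numbered livers at -0.39 to 0.25. With the replicate block 43 genes passed the threshold, in place of 3, with quality weights 39, and with no filter on low values 1. Leaving out 1 liver gave 1 to 11 genes: leaving out control liver 2 gave 7, control liver 3 gave 1, lipophagy liver 2 gave 5 and lipophagy liver 3 gave 11. The median difference of the 8 members other than Arntl and Npas2, 0.049, ran from -0.18 (without lipophagy liver 3) to 0.24 when a liver was left out. For Arntl, at -0.26, it was -0.60 with a pseudocount of 0.1 and -0.49 to -0.091 with a liver left out, and a filter at 1 FPKM removed the gene. The median distance of liver 3 over the 8 members, 0.67, was 0.82 against lipophagy livers 1 and 2 only.

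Of the members, Per1, Ciart and Arntl kept their sign in all alternatives that gave a value. The sign turned in 5 of 15 alternatives for Dbp (range -0.22 to 0.25), 3 for Tef (-0.22 to 0.27), 2 for Per2 (-0.16 to 0.25), 2 for Per3 (-0.37 to 0.068, above 0 without lipophagy liver 1 or 2), 1 for Nr1d2 (-0.20 to 0.12, above 0 without lipophagy liver 1) and 1 for Nr1d1 (-0.17 to 0.030). With quantile normalization the median was 0.13 for the liver output genes, 0.15 for the glucocorticoid targets, 0.032 for the temperature-responsive genes and 0.0087 for the CREB targets.

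Signs turned for other genes too. With quality weights Rora was at -0.061, Btrc at -0.026, Timeless at 0.0027 and Prkaa1 at -0.0050, and with quantile normalization Csnk1d was at -0.036 and Timeless at 0.052. With a liver left out, Rora ran from -0.061 to 0.091, Bhlhe41 from -0.29 to 0.025, Nfil3 from -0.12 to 0.38, Btrc from -0.059 to 0.11, Timeless from -0.071 to 0.016, Prkaa1 from -0.068 to 0.069, Cyp7a1 from -0.52 to 0.036, Usp2 from -0.050 to 1.11, Avpr1a from -0.30 to 0.13, Mt2 from -0.96 to 0.12 and Dusp1 from -0.28 to 0.80. Without a change of sign, Ciart ran from 0.17 to 1.77, Bhlhe40 from 0.21 to 0.89, Me1 from 0.043 to 0.40, Hspa8 from 0.28 to 0.55, Csnk1d from 0.0015 to 0.076, Csnk1e from -0.31 to -0.17, Hspb1 from -0.79 to -0.15, Hsph1 from 0.037 to 0.67 and Insig2 from -0.52 to -0.13. The cause was not tested. Depth limits Npas2 and, less so, Arntl.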

Other observations

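Of the 20 genes that lay above all other livers in lipophagy liver 3 by at least 1 on the log2 scale, 9 stood in a list of the report and 11 did not. Those named here were chosen after their values were seen. Klf10, a Kruppel-like transcription factor gene, was at 2.81, 4.74 and 8.20 FPKM in the control livers and at 5.38, 6.59 and 26.3 FPKM in the lipophagy livers, with control liver 3 next to highest. Mfsd2a, a lysolipid transporter gene, was at 6.17, 6.50 and 2.28 FPKM in the control livers and at 10.1, 3.19 and 24.8 FPKM in the lipophagy livers, with control liver 3 lowest. Ppp1r3b, a glycogen-targeting subunit gene of protein phosphatase 1, was at 6.75, 13.9 and 8.97 FPKM in the control livers and at 20.1, 15.3 and 42.7 FPKM in the lipophagy livers. Id1, an inhibitor of helix-loop-helix factors, was at 6.17, 11.3 and 12.2 FPKM in the control livers and at 6.58, 10.4 and 26.6 FPKM in the lipophagy livers, with lipophagy livers 1 and 2 inside the range of the controls. Pim3, a kinase gene, was at 15.3, 17.7 and 18.1 FPKM in the control livers and at 20.6, 26.2 and 53.6 FPKM in the lipophagy livers, and all lipophagy livers lay above all controls.

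Below all other livers by that margin were 8430408G22Rik, Tubb2a and BC002163. 8430408G22Rik was at 45.8, 43.5 and 49.0 FPKM in the control livers and at 97.7, 82.9 and 17.0 FPKM in the lipophagy livers, so that the lipophagy livers lay on both sides of the controls.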
